A study of Homo sapiens with 12 samples.

Results

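The 38 genes described here code for proteins that repair DNA double-strand breaks and DNA interstrand crosslinks. They are a list of named genes, drawn up with earlier results of these data known and looked up by symbol in a deposited table of 27814 named genes, and all 38 were found in it. Bulk RNA sequencing was done in BT474, an established breast cancer cell line that carries an amplified HER2 gene and hormone receptors. There were 4 groups of 3 libraries: BRD8 KO cells in neratinib, parental cells in neratinib, BRD8 KO cells in DMSO and parental cells in DMSO. Neratinib, a covalent kinase inhibitor that blocks HER2 and its relatives, was given at 200 nM for 4 h, and DMSO is the solvent control. BRD8 is a bromodomain protein of the EP400-TIP60 chromatin complex. The labels do not give the position of the BRD8 edit, whether the KO cells are a clone or a pool, or how long the DMSO cells were exposed. They also do not say whether the 3 libraries of a group came from separate cultures, so the p-values cover no more than the spread among these libraries, and that spread may be technical.

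A double-strand break can be joined directly by non-homologous end joining, which relies on the Ku proteins, or copied from an intact sister chromatid by homologous recombination, which starts with trimming of the broken ends. Crosslinks between the DNA strands stall replication forks, and the Fanconi proteins recognise and unhook them before recombination completes the repair. Many recombination genes are transcribed mostly around DNA replication, and breast tissue is sensitive to inherited loss of BRCA1, BRCA2, PALB2, ATM and CHEK2.

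Levels are in CPM, which are read counts scaled to a common library size with the trimmed mean of M values (TMM), and errors are SD with n = 3 libraries per group. Differences are log2 fold changes with their standard error (SE). A gene was called when the adjusted p of edgeR's quasi-likelihood test, corrected with Benjamini-Hochberg over all 16208 genes tested, was below 0.05. The typical variation between libraries of a group, beyond that of counting reads, was small, at a common coefficient of variation of 1.863% estimated by edgeR. Changes of a few percent could therefore pass, and a stricter count also asked for a change of at least 1.5-fold. All 38 genes passed the filter on low counts. Because these are bulk samples, fewer cells of a type and less RNA per cell cannot be told apart.

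Library totals over named genes lay between 32471198 and 44726160 counts. BRD8 mRNA was measured first as a check of the genotype labels. BRD8 stood at 156.1 ± 2.44 CPM in KO and 235.6 ± 5.23 CPM in parental libraries in neratinib, and at 67.4 ± 1.39 CPM in KO and 64.1 ± 0.706 CPM in parental libraries in DMSO. The transcript was thus not lower in the KO libraries in DMSO, so the cells are called KO-labelled. All 12 epithelial and luminal markers were tested, with summed levels of 13590 to 13790 CPM in KO-labelled and 14340 to 14580 CPM in parental cells in neratinib, and 18430 to 18750 CPM in KO-labelled and 17700 to 17980 CPM in parental cells in DMSO. In KO-labelled cells 4 of the 12 were called higher and 7 lower in neratinib, and 6 higher and 6 lower in DMSO. Over all genes tested the shares were 34.7% and 36.9% in neratinib, and 36% and 35.6% in DMSO. The marker TFF1 had log2 fold changes of -2.41 in neratinib and -2.13 in DMSO, which the sums do not show. Of 9 fibroblast, 12 immune and 6 endothelial markers, 2 of each list passed the filter, and no marker was at 0 in all 12 libraries. Endothelial markers summed to 36.2 to 40.4 CPM in KO-labelled and 14.4 to 15.4 CPM in parental cells in neratinib, and to 34.3 to 35.3 CPM in KO-labelled and 12.5 to 12.7 CPM in parental cells in DMSO. Most of this was the single gene VWF, with means of 38.1 CPM in KO-labelled and 14.7 CPM in parental cells in neratinib. In DMSO the VWF means were 32.9 CPM in KO-labelled and 11.9 CPM in parental cells. Fibroblast markers, mostly COL1A1, lay between 71.1 and 114.9 CPM and immune markers between 3.72 and 7.78 CPM over the 12 libraries. The part of any of these markers in the results was not tested.

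The repair genes took 0.2167 ± 0.00158% of all counts in KO-labelled and 0.2065 ± 0.00169% in parental cells in neratinib, and 0.2429 ± 0.00284% in KO-labelled and 0.2449 ± 0.00152% in parental cells in DMSO. Levels were also taken per kilobase of merged exons, so that genes of different length could be set side by side. The merged length takes in all annotated exons of a gene and may exceed that of the transcripts present, which would lower the value. On this scale the most abundant transcripts in DMSO were those of XRCC6, XRCC5 and PARP1. XRCC6 and XRCC5 code for the Ku70 and Ku80 proteins that clamp onto broken ends, and PARP1 marks broken DNA with poly(ADP-ribose). In parental cells in DMSO XRCC6 stood at 148.9 ± 0.549 CPM per kb, PARP1 at 107.0 ± 0.595 and XRCC5 at 83.4 ± 1.38. FANCG, a subunit of the Fanconi core complex, followed with 45.04 ± 1.65 CPM per kb. At the low end were BRCA2, which acts in recombination on trimmed DNA, with 0.892 ± 0.0327 CPM per kb, and ATM, the kinase that signals double-strand breaks, with 1.21 ± 0.0159. FANCM, a translocase that anchors the core complex to DNA, had 1.28 ± 0.0349 CPM per kb, close to ATM. XRCC4, the partner of the end-joining ligase, and RAD51D, a recombination gene, had 1.60 ± 0.124 and 1.62 ± 0.0755 CPM per kb, which did not differ beyond their spread. Their merged lengths were 1731 bases for XRCC4 and 10190 bases for RAD51D, so the place of RAD51D depends on the length used. Within a group, the coefficient of variation of a repair gene over its 3 libraries had a median of 2.98% and reached at most 12.5%, for FANCB in parental cells in neratinib.

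**Figure D1:**
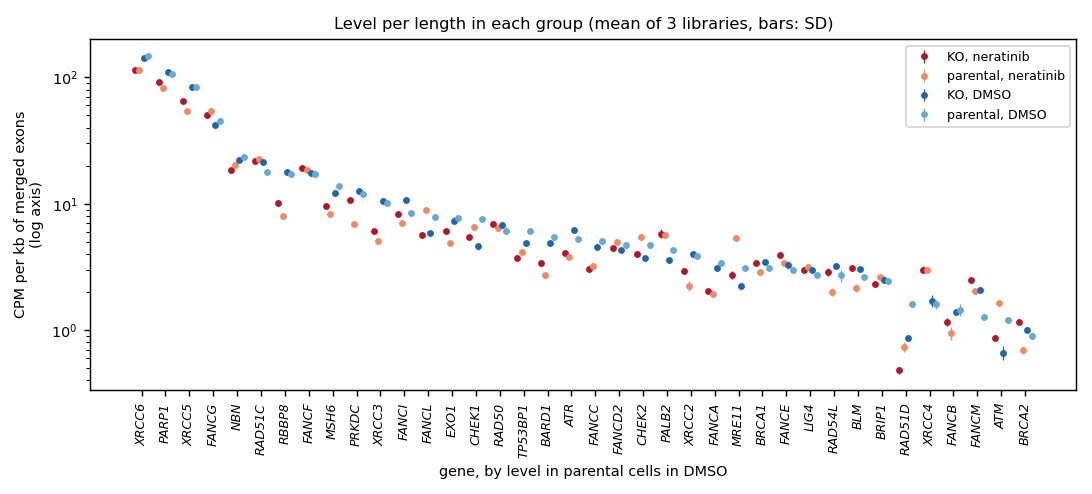
Level of each of the 38 repair genes in CPM per kb of merged exons on a log axis, ordered by the level in parental cells in DMSO. Points are means of 3 libraries per group and bars are SD. XRCC6, at 148.9 CPM per kb in parental cells in DMSO, stands at the top and BRCA2, at 0.892, at the bottom.

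In DMSO the repair genes differed between genotypes in both directions. The double-strand-break kinase gene ATM, the replication checkpoint kinase gene CHEK1 and the recombination gene RAD51D were lower in KO-labelled cells by at least 1.5-fold, and the Fanconi translocase gene FANCM was higher by at least 1.5-fold. Of the 38 genes, 11 were called higher and 16 lower, against 36% higher and 35.6% lower over all genes tested, and 11 were not called. With the 1.5-fold requirement, 1 was higher and 3 were lower, against 14.3% and 8.81% of all genes. The median log2 fold change was 0.01 over the repair genes and 0.00 over all genes tested. The libraries of the genotypes did not overlap for 30 of the 38 genes, compared with 72.8% of all genes. With a coefficient of variation fixed at 0.1 for every gene, 3 were called higher and 7 lower.

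RAD51D had 8.59, 8.53 and 9.35 CPM in the KO-labelled libraries, against 17.4, 16.3 and 15.9 CPM in the parental libraries. Every KO-labelled library lay below every parental one, and the log2 fold change was -0.91 (SE 0.063, Benjamini-Hochberg adjusted p = 5.8e-17 by edgeR). ATM had 11.7, 10.9 and 13.8 CPM in KO-labelled libraries, against 22.2, 22.5 and 21.9 CPM in parental libraries. The groups did not overlap, the KO-labelled libraries were the more scattered, and the log2 fold change was -0.88 (SE 0.056, Benjamini-Hochberg adjusted p = 2.56e-18 by edgeR). CHEK1 had 24.2, 22.4 and 21.3 CPM in KO-labelled libraries, against 37.2, 36.6 and 36.8 CPM in parental libraries. Again the libraries stood apart, with a log2 fold change of -0.70 (SE 0.040, Benjamini-Hochberg adjusted p = 5.52e-20 by edgeR). FANCM ran the other way, with 15.7, 15.4 and 14.5 CPM in KO-labelled libraries, against 9.59, 9.13 and 9.56 CPM in parental libraries. No KO-labelled library came near the parental ones for FANCM, and the log2 fold change was 0.69 (SE 0.058, Benjamini-Hochberg adjusted p = 2.66e-14 by edgeR).

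By role, 4 of 5 checkpoint and end-choice genes were called lower and 1 higher in KO-labelled cells, where 35.6% of all genes were called lower. Besides ATM and CHEK1, the ATM target kinase gene CHEK2 and TP53BP1, whose product protects ends from trimming, were lower, with log2 fold changes of -0.35 and -0.32, while ATR, the kinase that responds to single-stranded DNA, was higher at 0.21. MRE11, the nuclease of the complex that first binds a break, was lower at -0.48, NBN, the adaptor of that complex, was lower at -0.07 and RAD50, its structural subunit, was higher at 0.14. Among the BRCA genes, BRCA1 and BRCA2 were slightly higher at 0.16 and 0.18, and their partners BARD1 and PALB2 were lower at -0.17 and -0.27. Of 6 late recombination genes, RAD51C, RAD54L and BLM were higher, at 0.28, 0.26 and 0.20, and RAD51D alone was called lower. In the Fanconi core complex, FANCM was higher, FANCL, the ubiquitin ligase subunit, was lower at -0.43, FANCA, FANCC and FANCG were lower at -0.14, -0.15 and -0.11, and FANCB, FANCE and FANCF were not called. The paired substrates of that ligase went opposite ways, FANCI at 0.34 and FANCD2 at -0.15. Among end-joining genes no estimate exceeded 0.14, with PRKDC, the kinase recruited by Ku, at 0.08, the ligase gene LIG4 at 0.14 and XRCC6 at -0.07. MSH6, which recognises mismatched bases, was lower at -0.18. The smallest estimates were those of XRCC5 at 0.00 (SE 0.019), the helicase gene BRIP1 at 0.02 (SE 0.052) and PARP1 at 0.03 (SE 0.018), and none of these was called.

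**Figure D2:**
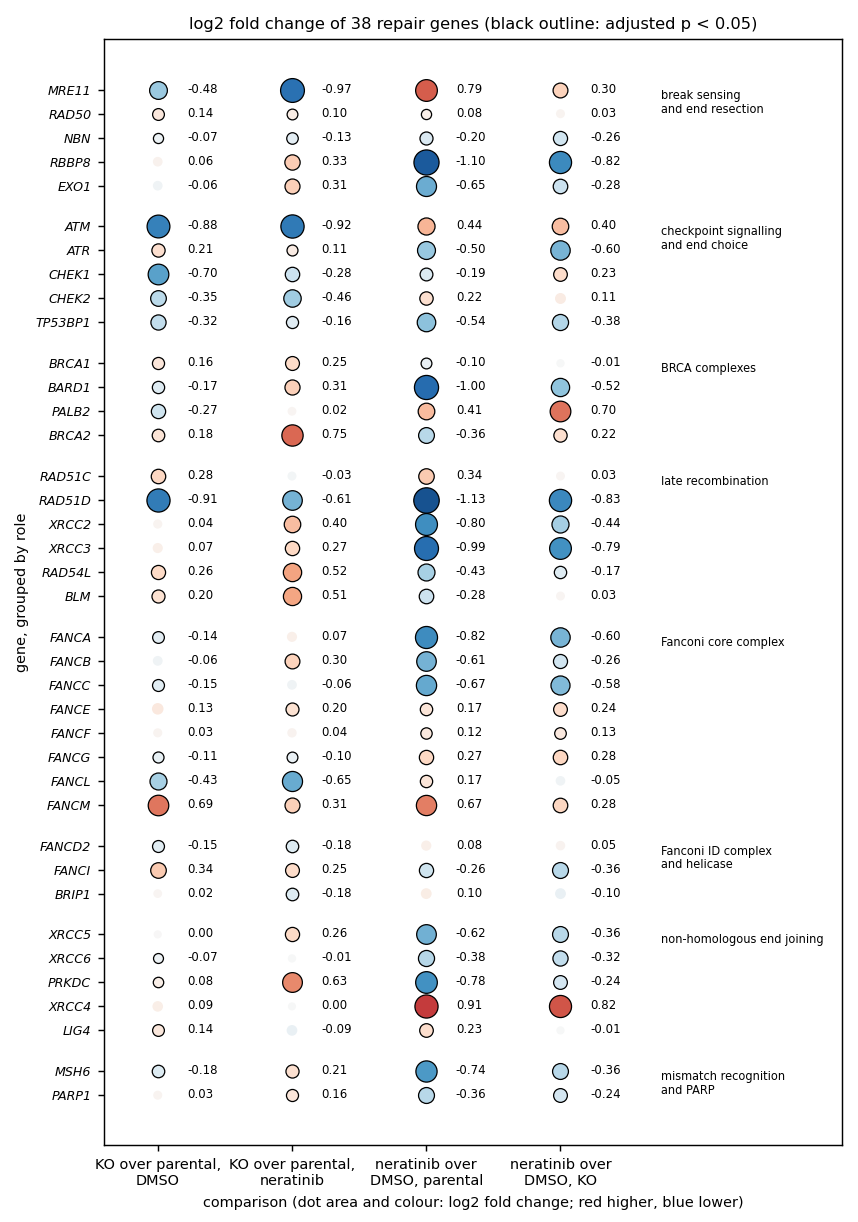
Log2 fold change of each repair gene, grouped by role, in the 4 pairwise comparisons. Dot area and colour show the size and sign, the number beside each dot is the log2 fold change, and a black outline marks an adjusted p below 0.05. ATM and RAD51D are blue in both genotype comparisons, with -0.88 and -0.91 in DMSO, and the neratinib columns hold the deepest blue dots at RAD51D, RBBP8, BARD1 and XRCC3.

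In neratinib, MRE11, ATM, RAD51D and FANCL were lower in KO-labelled cells by at least 1.5-fold, and BRCA2 and PRKDC were higher by at least 1.5-fold. Of the 38 genes, 19 were called higher and 11 lower, against 34.7% higher and 36.9% lower over all genes tested. With the 1.5-fold requirement, 2 were higher and 4 lower, against 13.9% and 9.06% of all genes. The median log2 fold change was 0.09 over the repair genes and -0.02 over all genes. Libraries of the genotypes did not overlap for 31 of the 38 genes, compared with 72.6% of all genes. At a fixed coefficient of variation of 0.1, 9 were called higher and 5 lower. Over both genotype comparisons, 10 of the 38 genes were called lower and 9 higher in both, against 25.3% lower and 25.5% higher in both over all genes, so these counts lay near those of all genes.

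MRE11 had 20.3, 22.3 and 19.2 CPM in KO-labelled libraries in neratinib, against 40.3, 40.5 and 41.1 CPM in parental libraries in neratinib. The groups stood far apart, and the log2 fold change was -0.97 (SE 0.043, Benjamini-Hochberg adjusted p = 6.6e-24 by edgeR). ATM had 15.3, 16.6 and 15.7 CPM in KO-labelled libraries, against 30.2, 29.8 and 30.3 CPM in parental libraries. The groups did not overlap, and the log2 fold change of -0.92 (SE 0.050, Benjamini-Hochberg adjusted p = 1.77e-20 by edgeR) lay near the -0.88 seen in DMSO. FANCL had 9.56, 9.53 and 9.84 CPM in KO-labelled libraries, against 14.8, 14.7 and 15.9 CPM in parental libraries. All KO-labelled libraries were lower for FANCL, with a log2 fold change of -0.65 (SE 0.058, Benjamini-Hochberg adjusted p = 1.38e-13 by edgeR), although 26.67% of its exon bases are shared with other genes, almost all with VRK2 on the opposite strand, which changed by 0.02. RAD51D had 4.59, 5.25 and 4.89 CPM in KO-labelled libraries, against 8.01, 6.71 and 7.77 CPM in parental libraries. Its groups did not overlap, and the log2 fold change was -0.61 (SE 0.084, Benjamini-Hochberg adjusted p = 1.48e-08 by edgeR).

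BRCA2 had 13.6, 14.8 and 13.7 CPM in KO-labelled libraries in neratinib, against 8.68, 7.73 and 8.49 CPM in parental libraries in neratinib. Each KO-labelled library was above each parental one, and the log2 fold change was 0.75 (SE 0.062, Benjamini-Hochberg adjusted p = 1.64e-14 by edgeR). PRKDC had 139.6, 146.0 and 147.1 CPM in KO-labelled libraries, against 93.8, 93.3 and 92.9 CPM in parental libraries. Again there was no overlap, with a log2 fold change of 0.63 (SE 0.023, Benjamini-Hochberg adjusted p = 1.1e-26 by edgeR). Smaller positive differences were called for the strand-exchange motor gene RAD54L at 0.52, the helicase gene BLM at 0.51 and the recombination gene XRCC2 at 0.40. The end-resection genes RBBP8, whose product CtIP starts trimming with MRE11, and EXO1, a nuclease that extends it, were higher at 0.33 and 0.31, and BARD1 was higher at 0.31. XRCC4, XRCC6 and PALB2 had the smallest estimates, at 0.00 (SE 0.090), -0.01 (SE 0.018) and 0.02 (SE 0.050), and were not called.

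**Figure D3:**
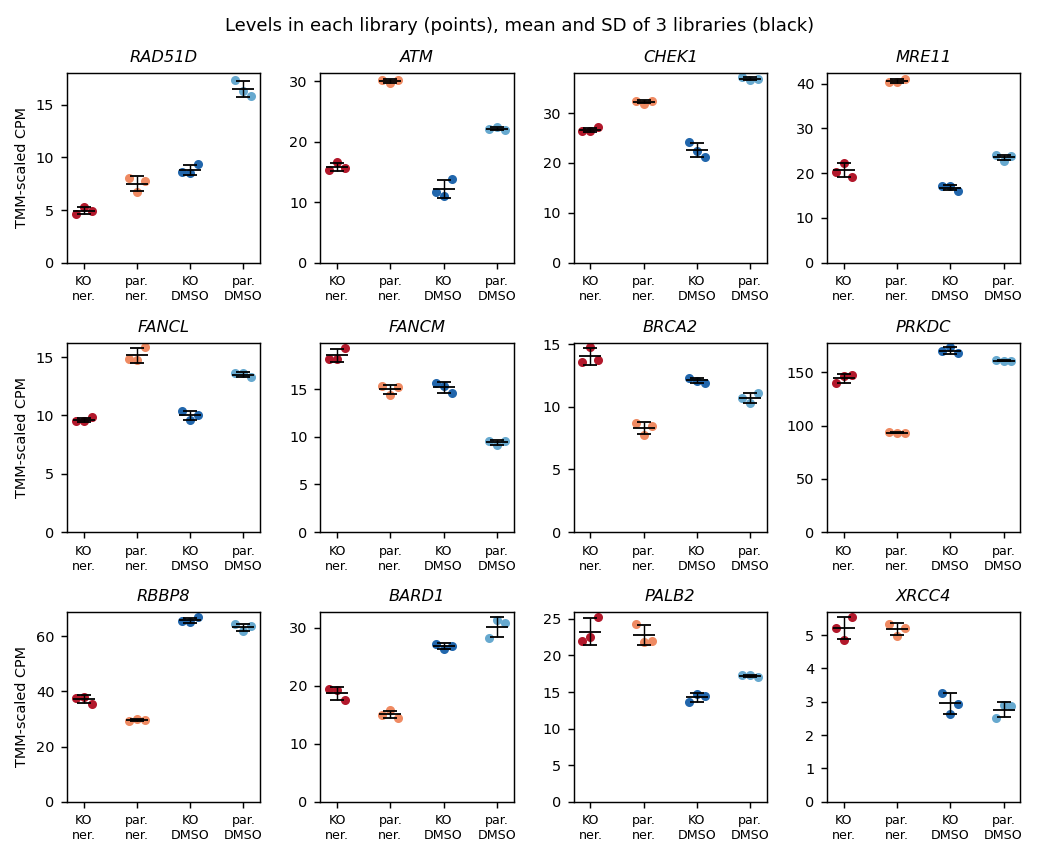
TMM-scaled CPM of 12 repair genes in every library, with the mean and SD of 3 libraries in black, for KO-labelled and parental cells in neratinib (red shades) and in DMSO (blue shades). ATM, MRE11 and FANCL lie lower in KO-labelled than in parental cells in both media, whereas BRCA2 and PRKDC lie higher in KO-labelled than in parental cells in neratinib, where PRKDC stands at 139.6 to 147.1 CPM in KO-labelled and 92.9 to 93.8 CPM in parental libraries.

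MRE11, ATM and CHEK1 all lie on the long arm of chromosome 11 (GENCODE 29, GRCh38: MRE11 from 94415578 to 94493908, ATM from 108222484 to 108369102 and CHEK1 from 125625136 to 125676255). The 25 tested protein-coding genes on each side of every repair gene were therefore described, a choice made after the values were seen and given with no test. Around ATM, 37 of 50 neighbours had a log2 fold change below 0 in neratinib, with a median of -0.37, and 38 of 50 in DMSO, with a median of -0.34. The 50 neighbours of MRE11 had medians of -0.36 in neratinib and -0.30 in DMSO, with 34 and 37 below 0, and the MRE11 and ATM windows shared 13 neighbours. Around CHEK1 the medians were -0.33 in neratinib and -0.16 in DMSO. Over the 38 windows, the ATM window had the lowest median in both media, and the highest medians were 0.34 around XRCC3 in neratinib and 0.32 around PRKDC in DMSO. FANCF, on the short arm of the same chromosome, had neighbours with medians of 0.07 in neratinib and 0.11 in DMSO. The part of the neighbourhood in the values of MRE11, ATM and CHEK1 was not tested. RAD51D and FANCM, which also differed by at least 1.5-fold in DMSO, had neighbours with medians of -0.10 and 0.06 in DMSO.

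**Figure D4:**
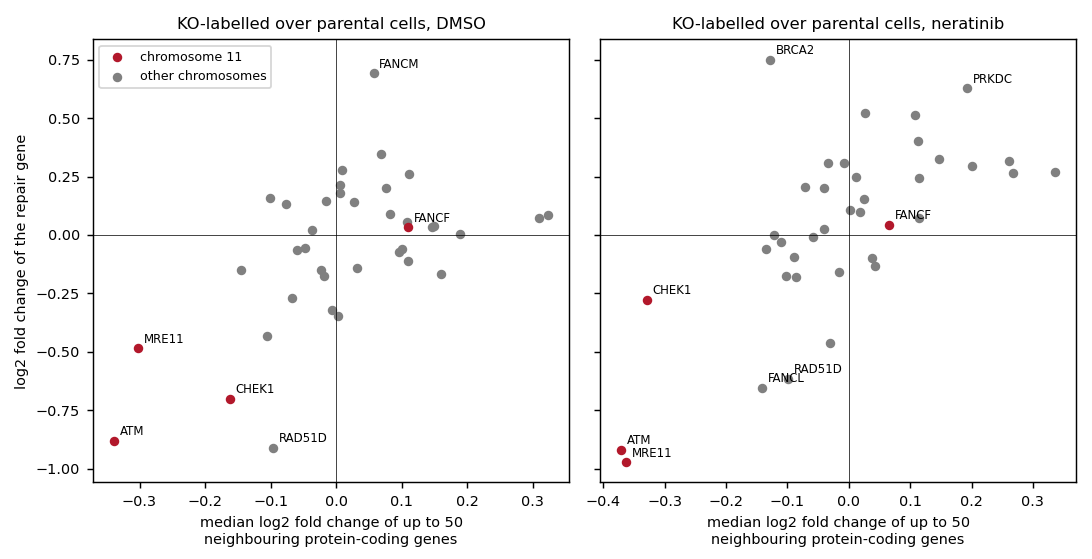
Log2 fold change, KO-labelled over parental cells, of each repair gene (vertical axis) against the median over up to 50 neighbouring protein-coding genes (horizontal axis), in DMSO and in neratinib. The chromosome 11 genes are in red, and ATM and MRE11 lie at the lower left in both panels, with neighbour medians between -0.30 and -0.37.

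In parental cells more of the repair genes were lower than higher after 4 h of neratinib. RAD51D, RBBP8, BARD1 and XRCC3 fell furthest, with log2 fold changes between -1.13 and -0.99, while MRE11, FANCM and XRCC4 rose by at least 1.5-fold. Of the 38 genes, 13 were called higher and 23 lower, against 41.8% higher and 38.9% lower over all genes tested, and 2 were not called. Called lower were 5 of 6 late recombination genes, 3 of 4 BRCA genes, 3 of 5 end-joining genes and both MSH6 and PARP1, whereas 5 of 8 Fanconi core genes were called higher and 3 lower. With the 1.5-fold requirement, 3 were higher and 12 lower, against 22.5% and 17.3% of all genes. The median log2 fold change was -0.27 over the repair genes and 0.04 over all genes. For 35 of the 38 genes the neratinib and DMSO libraries did not overlap, compared with 81.3% of all genes. The count of higher genes was 7 when the coefficient of variation was fixed at 0.1.

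RAD51D had 8.01, 6.71 and 7.77 CPM in parental libraries in neratinib, against 17.4, 16.3 and 15.9 CPM in parental libraries in DMSO. The groups did not overlap, and the log2 fold change of -1.13 (SE 0.065, Benjamini-Hochberg adjusted p = 4.1e-20 by edgeR) was the lowest of the 38. RBBP8 had 29.2, 30.1 and 29.7 CPM in neratinib, against 64.4, 62.0 and 63.6 CPM in DMSO. No neratinib library came near the DMSO ones, and RBBP8 had a log2 fold change of -1.10 (SE 0.033, Benjamini-Hochberg adjusted p = 1.58e-30 by edgeR). BARD1 had 14.9, 15.8 and 14.5 CPM in neratinib, against 28.2, 31.3 and 30.7 CPM in DMSO. Its libraries separated fully, with a log2 fold change of -1.001 (SE 0.049, Benjamini-Hochberg adjusted p = 9.25e-23 by edgeR), whereas its obligate partner BRCA1 changed by -0.10 (SE 0.042, Benjamini-Hochberg adjusted p = 0.0282 by edgeR). XRCC3, whose product works with that of RAD51C, had 17.0, 16.2 and 15.6 CPM in neratinib, against 31.2, 33.6 and 32.0 CPM in DMSO. Its groups did not overlap either, with a log2 fold change of -0.99 (SE 0.046, Benjamini-Hochberg adjusted p = 2.8e-23 by edgeR). XRCC3 shares 45.35% of its exon bases with KLC1 on the opposite strand, which changed by -0.52, and its 49 neighbours had a median of -0.39.

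FANCA, a subunit of the Fanconi core complex, had 11.5, 12.4 and 12.6 CPM in neratinib, against 21.9, 21.8 and 20.2 CPM in DMSO. All neratinib libraries were lower, with a log2 fold change of -0.82 (SE 0.052, Benjamini-Hochberg adjusted p = 1.87e-18 by edgeR), and FANCA shares 22.4% of its exon bases with ZNF276, which changed by -0.50. XRCC2 had 6.305, 7.58 and 6.78 CPM in neratinib, against 11.7, 11.8 and 12.3 CPM in DMSO. The groups were apart, with a log2 fold change of -0.80 (SE 0.067, Benjamini-Hochberg adjusted p = 1.14e-14 by edgeR). PRKDC had 93.8, 93.3 and 92.9 CPM in neratinib, against 161.2, 160.6 and 160.1 CPM in DMSO. The libraries of each group were almost level and did not overlap, with a log2 fold change of -0.78 (SE 0.023, Benjamini-Hochberg adjusted p = 4.48e-31 by edgeR). MSH6 had 63.3, 64.7 and 66.1 CPM in neratinib, against 109.3, 106.1 and 109.5 CPM in DMSO. The neratinib libraries were lower throughout, with a log2 fold change of -0.74 (SE 0.026, Benjamini-Hochberg adjusted p = 4.88e-28 by edgeR), and 21.04% of MSH6 exon bases are shared with FBXO11, which changed by -0.18. FANCC, EXO1, XRCC5 and FANCB also fell by at least 1.5-fold, with log2 fold changes of -0.67, -0.65, -0.62 and -0.61.

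XRCC4 rose to 5.32, 4.99 and 5.22 CPM in parental cells in neratinib, against 2.52, 2.90 and 2.88 CPM in DMSO. The groups did not overlap, and the log2 fold change was 0.91 (SE 0.10, Benjamini-Hochberg adjusted p = 8.2e-11 by edgeR), while LIG4, the ligase that XRCC4 stabilises, rose by 0.23. MRE11 rose to 40.3, 40.5 and 41.1 CPM in neratinib, against 24.0, 22.8 and 23.8 CPM in DMSO. All neratinib libraries were higher, with a log2 fold change of 0.79 (SE 0.041, Benjamini-Hochberg adjusted p = 1.76e-21 by edgeR), whereas RAD50 rose by 0.08 and NBN fell by 0.20. FANCM rose by 0.67, ATM by 0.44, PALB2, which bridges BRCA1 and BRCA2, by 0.41, and RAD51C by 0.34. RAD50 and BRCA1, at 0.08 and -0.10, were the called genes with the smallest changes, and FANCD2 and BRIP1, at 0.08 (SE 0.039) and 0.10 (SE 0.052), were not called.

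In KO-labelled cells, too, more repair genes were lower than higher in neratinib. RAD51D, RBBP8, XRCC3, ATR and FANCA fell by at least 1.5-fold, and XRCC4 and PALB2 rose by at least 1.5-fold. Of the 38 genes, 10 were called higher and 19 lower, against 38.9% higher and 38.4% lower over all genes tested, and 9 were not called. Of 6 late recombination genes 4 were called lower and 0 higher, and of 5 end-joining genes 3 were lower and 1 higher, whereas the Fanconi core had 4 higher and 3 lower and the checkpoint and end-choice genes 2 higher and 2 lower. With the 1.5-fold requirement, 2 were higher and 5 lower, against 18.9% and 14.2% of all genes. The median log2 fold change was -0.14 over the repair genes and 0.02 over all genes. Libraries of neratinib and DMSO did not overlap for 29 of the 38 genes, compared with 78% of all genes. The count of higher genes was 6 with the fixed coefficient of variation, and 3 rather than 5 genes fell by at least 1.5-fold when library totals alone set the scale.

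RAD51D had 4.59, 5.25 and 4.89 CPM in KO-labelled libraries in neratinib, against 8.59, 8.53 and 9.35 CPM in KO-labelled libraries in DMSO. The groups did not overlap, with a log2 fold change of -0.83 (SE 0.081, Benjamini-Hochberg adjusted p = 1.62e-12 by edgeR). RBBP8 had 37.8, 38.1 and 35.5 CPM in neratinib, against 65.6, 65.2 and 66.8 CPM in DMSO. All neratinib libraries were lower, with a log2 fold change of -0.82 (SE 0.032, Benjamini-Hochberg adjusted p = 2.5e-26 by edgeR). XRCC3 had 19.6, 19.1 and 20.2 CPM in neratinib, against 35.1, 34.7 and 31.7 CPM in DMSO. Its libraries separated, with a log2 fold change of -0.79 (SE 0.045, Benjamini-Hochberg adjusted p = 3.12e-20 by edgeR), and KLC1 on the opposite strand changed by -0.35. ATR had 32.6, 33.8 and 33.8 CPM in neratinib, against 52.9, 50.1 and 49.2 CPM in DMSO. The groups were apart, with a log2 fold change of -0.60 (SE 0.035, Benjamini-Hochberg adjusted p = 7.3e-20 by edgeR). FANCA had 12.6, 12.5 and 13.3 CPM in neratinib, against 19.1, 19.2 and 19.9 CPM in DMSO. Its groups did not overlap, with a log2 fold change of -0.60 (SE 0.053, Benjamini-Hochberg adjusted p = 8.31e-14 by edgeR).

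XRCC4 had 5.21, 4.87 and 5.53 CPM in KO-labelled libraries in neratinib, against 3.27, 2.64 and 2.94 CPM in KO-labelled libraries in DMSO. Each neratinib library was higher, with a log2 fold change of 0.82 (SE 0.10, Benjamini-Hochberg adjusted p = 1.25e-09 by edgeR). PALB2 had 21.9, 22.5 and 25.3 CPM in neratinib, against 13.6, 14.8 and 14.4 CPM in DMSO. The groups did not overlap, and the log2 fold change was 0.70 (SE 0.054, Benjamini-Hochberg adjusted p = 1.3e-15 by edgeR). LIG4, BRCA1 and RAD51C had the smallest estimates, at -0.01 (SE 0.056), -0.01 (SE 0.040) and 0.03 (SE 0.032), and were not called.

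The neratinib response itself was compared between genotypes by the interaction, which is the log2 response in KO-labelled cells with the parental log2 response subtracted. A higher response in KO-labelled cells can thus be a smaller fall, a larger rise or a rise in place of a fall. A lower response can be a smaller rise, a larger fall or a fall in place of a rise. Of the 38 genes, 17 had a higher and 6 a lower response in KO-labelled cells, against 21.5% and 24.6% of all genes tested. In either direction these were 23 of 38 genes, against 46.1% of all genes, and 15 were not called. With the 1.5-fold requirement edgeR called 0 repair genes in either direction, against 4.3% higher and 5.13% lower over all genes. Every repair gene's interaction lay between -0.49 and 0.57, inside the limit of 0.585 on the log2 scale, so the count is 0 whether p is adjusted or not. BRCA2, at 0.57, lay just inside the limit and passed it, making 1 higher, with DESeq2, with edgeR on DESeq2-style size factors and in 6 of the 12 edgeR fits that left out 1 library. Those 6 left out KO-labelled replicate 1 or 3 or parental replicate 1 or 3 in neratinib, KO-labelled replicate 1 in DMSO or parental replicate 2 in DMSO, and over all 12 the BRCA2 interaction ranged from 0.53 to 0.63. The median interaction was 0.09 over the repair genes and -0.02 over all genes. The count of 6 lower responses fell to 3 without KO-labelled DMSO replicate 1 and to 3 with DESeq2, and with a coefficient of variation fixed at 0.1 for every gene 2 interactions were called higher and 0 lower.

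The neratinib estimates, which for each genotype rest on separate libraries, had the same sign in both genotypes for 32 of 38 genes, against 85.5% of all genes. Of the 23 genes called lower with neratinib in parental cells, 19 were also called lower in KO-labelled cells, against 82.8% of all genes called lower in parental cells. The largest positive interactions were those of BRCA2 at 0.57 (SE 0.087, Benjamini-Hochberg adjusted p = 4.65e-07 by edgeR) and PRKDC at 0.54 (SE 0.032, Benjamini-Hochberg adjusted p = 1.41e-18 by edgeR). BRCA2 changed by 0.22 in KO-labelled cells and by -0.36 in parental cells, and CHEK1 by 0.23 in KO-labelled and -0.19 in parental cells, and these were the genes called in opposite directions. PRKDC fell by 0.24 in KO-labelled cells and by 0.78 in parental cells. BARD1 fell by 0.52 in KO-labelled and 1.001 in parental cells, with an interaction of 0.48 (SE 0.069, Benjamini-Hochberg adjusted p = 1.45e-07 by edgeR).

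The largest negative interaction was that of MRE11, at -0.49 (SE 0.065, Benjamini-Hochberg adjusted p = 3.11e-08 by edgeR), since MRE11 rose by 0.30 in KO-labelled cells and by 0.79 in parental cells. FANCM rose by 0.28 in KO-labelled and 0.67 in parental cells, and RAD51C changed by 0.03 in KO-labelled and 0.34 in parental cells, with interactions of -0.39 and -0.31. ATM rose alike in the estimates, by 0.40 in KO-labelled and 0.44 in parental cells, with an interaction of -0.04 (SE 0.076) that was not called. XRCC4, at an interaction of -0.09 (SE 0.147), was not called either. FANCG, FANCF and FANCD2 had the interactions nearest to 0, at 0.01 (SE 0.035), 0.01 (SE 0.048) and -0.03 (SE 0.056). By role, the interaction was called higher in 3 and lower in 0 of 4 BRCA genes, higher in 5 and lower in 1 of 6 late recombination genes, and higher in both MSH6 and PARP1. It was higher in 2 and lower in 1 of 5 resection genes, higher in 2 and lower in 0 of 5 checkpoint genes, and higher in 2 and lower in 1 of 5 end-joining genes. In the Fanconi core it was higher in 1 and lower in 2 of 8 genes, and in the Fanconi ID and helicase genes higher in 0 and lower in 1 of 3. Over all genes the shares were 21.5% higher and 24.6% lower.

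**Figure D5:**
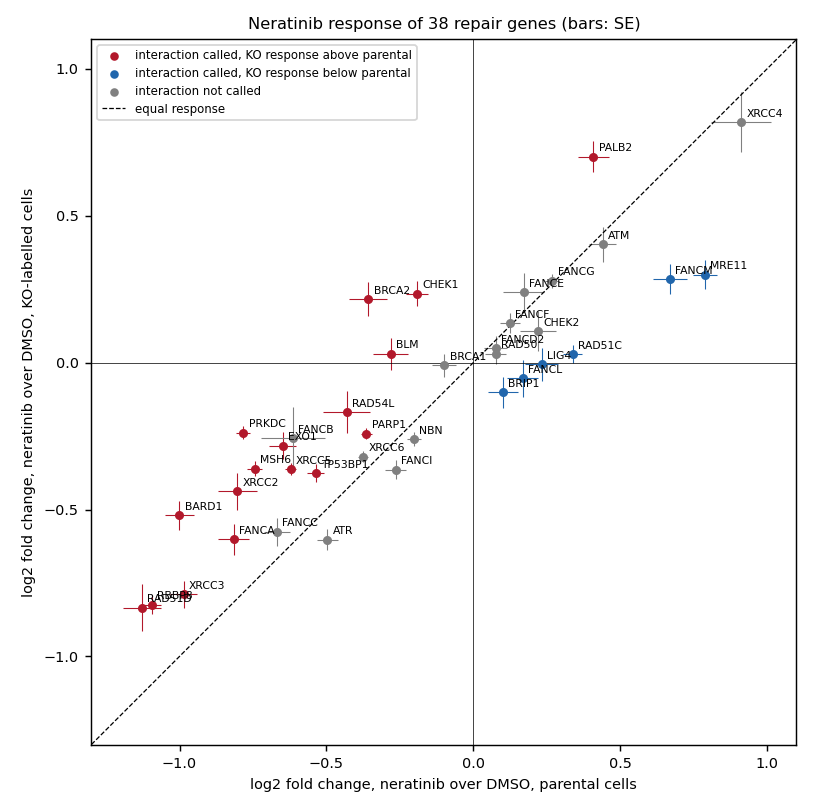
Log2 fold change of each repair gene with neratinib over DMSO in KO-labelled cells (vertical axis) against parental cells (horizontal axis), with SE bars and a dashed line of equal response. Red marks the 17 genes whose response was called higher in KO-labelled cells, blue the 6 called lower and grey the 15 not called; BRCA2 and CHEK1 lie above 0 in KO-labelled and below 0 in parental cells.

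Other repair genes were counted by pathway. With neratinib, 38.9% of all genes tested were called higher and 38.4% lower in KO-labelled cells. In parental cells the shares of all genes were 41.8% higher and 38.9% lower. Of 50 other recombination and break-response genes tested, 17 were higher and 24 lower with neratinib in KO-labelled cells (median log2 fold change -0.10), and 19 were higher and 24 lower in parental cells (median -0.09). WEE1, the kinase that holds cells before mitosis, rose by 1.53 in KO-labelled and 1.16 in parental cells, and RECQL5, a DNA helicase, rose by 0.98 in KO-labelled and 1.08 in parental cells. SHLD1, a shieldin subunit that protects ends, fell by 1.05 in KO-labelled cells and changed by -0.20 in parental cells, with an interaction of -0.86. In DMSO, SHLD1 stood at 5.565 CPM in KO-labelled and 2.888 CPM in parental cells. Of 19 other Fanconi and crosslink genes, 6 were higher and 6 lower with neratinib in KO-labelled cells (median -0.01), and 6 were higher and 9 lower in parental cells (median -0.09). CENPX, which binds FANCM, was at -0.97 in KO-labelled and -0.87 in parental cells. FAAP100, a core complex subunit, was at -0.48 in KO-labelled and -0.96 in parental cells. Of 12 other end-joining genes tested, 7 were higher and 4 lower with neratinib in each genotype, with medians of 0.20 in KO-labelled and 0.33 in parental cells. PAXX, a Ku-binding factor, changed by -0.66 in KO-labelled and -1.13 in parental cells. NHEJ1, the XRCC4-like factor, fell by 0.71 in KO-labelled and 0.84 in parental cells, and APLF rose by 1.203 in KO-labelled and 1.60 in parental cells.

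In the genotype comparison, 14 of these 50 recombination genes were higher and 21 lower in KO-labelled cells in neratinib, and 14 higher and 26 lower in DMSO. Over all genes tested, 34.7% were called higher and 36.9% lower in neratinib, and 36% higher and 35.6% lower in DMSO. ABRAXAS1, a member of a BRCA1 complex, was lower at -0.91 in neratinib and -0.51 in DMSO, and POLQ, the polymerase of a backup joining route, was higher at 0.60 in neratinib. Of the 19 other Fanconi genes, 5 were higher and 8 lower in neratinib and 3 higher and 10 lower in DMSO, where ERCC4, a nuclease that unhooks crosslinks, was higher at 0.73. Of the 12 end-joining genes, 4 were higher and 5 lower in neratinib and 3 higher and 6 lower in DMSO. In base excision repair, OGG1 and SMUG1, which remove damaged bases, were lower at -0.58 and -0.60 in neratinib and at -0.86 and -0.72 in DMSO. Of 19 base excision genes, 4 were higher and 9 lower in KO-labelled cells in neratinib, and 5 higher and 11 lower in DMSO. Of 19 nucleotide excision genes, 7 were higher and 9 lower in neratinib, and 6 higher and 6 lower in DMSO. Of 6 other mismatch repair genes tested, 2 were higher and 2 lower in neratinib, and 1 was higher and 4 lower in DMSO.

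Genes of the cell cycle moved in the same libraries. For comparison, 38.9% of all genes tested were higher and 38.4% lower with neratinib in KO-labelled cells. In parental cells 41.8% of all genes were higher and 38.9% lower. Of 44 G1/S replication genes, 39 were lower and 1 higher with neratinib in KO-labelled cells, with a median of -0.47, and 42 were lower and 1 higher in parental cells, with a median of -0.82. RRM2, a ribonucleotide reductase subunit, fell by 2.41 in KO-labelled and 2.03 in parental cells. The interaction was called higher for 26 and lower for 4 of the 44, against 21.5% and 24.6% of all genes. CDCA7 had an interaction of 1.33 and DTL of 1.06. Of 38 G2/M genes, 25 were higher and 8 lower with neratinib in KO-labelled cells, with a median of 0.16, and 29 were higher and 7 lower in parental cells, with a median of 0.27. Between genotypes, 21 G1/S genes were higher and 8 lower in KO-labelled cells in neratinib, and 8 were higher and 27 lower in DMSO. Of the G2/M genes, 20 were higher and 7 lower in neratinib and 31 higher and 3 lower in DMSO. Over all genes, 34.7% were higher and 36.9% lower in neratinib, and 36% higher and 35.6% lower in DMSO. The G1/S genes took 0.1612% to 0.1782% of the counts of a library in neratinib and 0.2485% to 0.2794% in DMSO, and mitochondrially encoded genes took 3.257% to 4.021% in neratinib and 2.075% to 2.495% in DMSO. The part of the cell cycle and of the mitochondrial share in the values of the repair genes was not tested.

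Promoter windows of 300 bases, from 250 before to 50 after the start of the gene, were available from RefSeq (GRCh38.p14) for 34 of the 38 genes and were searched on both strands. A word of the kind bound by E2F, the factor family of the G1/S transition (TTTGGCGC, TTTCCCGC or TTTCGCGC), occurred in 6 of the 34 windows (17.65%), in 2.794% of 27305 promoters of the table and in 21 of 37 windows of the G1/S genes (56.76%). Those of the repair genes were EXO1, FANCC, FANCD2, MSH6, XRCC2 and XRCC6. Of 10 matched genes that fell by at least 1.5-fold with neratinib in parental cells, 4 held such a word, and these are printed because they are the genes that both fell and held the word. None of the 3 genes that rose by at least 1.5-fold held it. FANCD2 and XRCC6, which held the word as well, changed by 0.08 (not called) and -0.38 with neratinib in parental cells. A match is a description of the letters and not a binding site. The windows below are chr1:241847954-241848253 on the plus strand for EXO1, chr9:95317660-95317959 on the minus strand for FANCC, chr2:47782895-47783194 on the plus strand for MSH6 and chr7:152676092-152676391 on the minus strand for XRCC2, each written 5′ to 3′ along the gene with the E2F words, in either orientation, in capitals.
EXO1: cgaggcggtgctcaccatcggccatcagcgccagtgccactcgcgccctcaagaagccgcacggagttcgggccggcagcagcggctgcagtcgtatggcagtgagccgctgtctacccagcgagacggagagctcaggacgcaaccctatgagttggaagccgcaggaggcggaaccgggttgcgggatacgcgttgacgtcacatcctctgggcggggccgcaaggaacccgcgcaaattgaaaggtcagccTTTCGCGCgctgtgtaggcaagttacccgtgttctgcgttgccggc
FANCC: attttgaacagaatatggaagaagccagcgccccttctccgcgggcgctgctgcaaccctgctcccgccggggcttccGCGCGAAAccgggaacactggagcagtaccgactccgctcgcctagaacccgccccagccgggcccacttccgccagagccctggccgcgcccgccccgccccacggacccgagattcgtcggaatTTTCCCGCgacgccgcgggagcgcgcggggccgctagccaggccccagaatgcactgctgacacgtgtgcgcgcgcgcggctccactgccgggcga
MSH6: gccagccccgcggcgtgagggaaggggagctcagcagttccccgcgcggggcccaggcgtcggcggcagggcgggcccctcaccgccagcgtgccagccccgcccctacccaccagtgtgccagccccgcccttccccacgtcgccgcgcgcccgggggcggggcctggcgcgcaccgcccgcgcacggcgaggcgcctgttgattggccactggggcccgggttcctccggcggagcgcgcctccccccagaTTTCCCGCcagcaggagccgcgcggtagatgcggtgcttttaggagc
XRCC2: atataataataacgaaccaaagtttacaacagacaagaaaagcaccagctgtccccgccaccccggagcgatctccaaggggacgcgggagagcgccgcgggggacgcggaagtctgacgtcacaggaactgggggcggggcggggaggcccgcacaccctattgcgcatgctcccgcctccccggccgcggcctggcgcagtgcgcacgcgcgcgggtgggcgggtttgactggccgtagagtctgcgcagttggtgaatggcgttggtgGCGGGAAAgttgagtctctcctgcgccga
The word lies within the first 50 transcribed bases in EXO1, MSH6 and XRCC2, at positions 5, 4 and 22 from the start, and at positions -172 and -46 in FANCC.

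The genes that rose in parental cells, FANCM, MRE11 and XRCC4, each held the letters CCAAT on either strand, which occurred in 16 of 34 repair windows (47.06%) and in 35.7% of all promoters. The ETS word CCGGAAG was held by MRE11 and XRCC4, by 12 of the 34 repair windows (35.29%) and by 10.67% of all promoters. Of the 10 matched genes that fell by at least 1.5-fold, 3 held CCAAT and 1 held the ETS word. In the windows printed above only the E2F words are in capitals, so the capitals of the printed sets cannot be compared. The windows of FANCM, MRE11 and XRCC4 are printed with the CCAAT and ETS words, in either orientation, in capitals. They are chr14:45135680-45135979 on the plus strand for FANCM, chr11:94493795-94494094 on the minus strand for MRE11 and chr5:83077297-83077596 on the plus strand for XRCC4.
FANCM: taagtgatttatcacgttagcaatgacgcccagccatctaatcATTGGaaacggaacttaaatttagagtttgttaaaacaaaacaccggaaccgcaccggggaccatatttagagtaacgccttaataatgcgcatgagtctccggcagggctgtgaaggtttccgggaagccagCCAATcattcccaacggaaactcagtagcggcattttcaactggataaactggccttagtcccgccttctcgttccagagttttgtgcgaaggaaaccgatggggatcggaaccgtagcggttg
MRE11: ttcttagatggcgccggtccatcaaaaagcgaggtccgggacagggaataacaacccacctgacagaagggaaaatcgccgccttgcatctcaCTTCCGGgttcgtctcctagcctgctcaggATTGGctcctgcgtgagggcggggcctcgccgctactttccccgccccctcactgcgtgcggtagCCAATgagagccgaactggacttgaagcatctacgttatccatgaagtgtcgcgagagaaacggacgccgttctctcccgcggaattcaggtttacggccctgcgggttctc
XRCC4: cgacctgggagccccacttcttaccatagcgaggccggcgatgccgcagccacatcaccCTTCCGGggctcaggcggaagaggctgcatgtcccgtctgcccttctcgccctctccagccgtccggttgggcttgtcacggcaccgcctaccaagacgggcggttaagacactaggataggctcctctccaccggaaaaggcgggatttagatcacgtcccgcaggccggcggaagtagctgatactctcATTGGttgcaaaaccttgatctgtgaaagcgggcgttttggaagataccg
Of the other words searched, the NRF1 word GCGCATGC was in 3 of 34 repair windows (8.82%) and 3.27% of all promoters, the cell-cycle word TTTGAA in 3 of 34 (8.82%) and 15.4%, and the FOXO word GTAAACA in none of the 34 and in 3.41% of all promoters. The words do not overlap one another within the printed windows.

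Overlap with other genes limits some of these values, because the strand setting of the counting is not given in the sources used here and reads from overlapping exons cannot then be told apart. In GENCODE 29, 15 of the 38 genes share exon bases with another gene, and 6 share more than 20%, which are RAD50, XRCC3, TP53BP1, FANCL, FANCA and MSH6. RAD50 shares 90.6% with a readthrough gene on its own strand, and TP53BP1 shares 28.86% with TUBGCP4. Near-identical copies also matter for XRCC6, for which 17.2% of the 50-base windows of its transcript occur in transcripts of other genes, among them its pseudogenes. RAD54L shares 17.99% with LRRC41 on the opposite strand, which stood at 137.8 CPM in parental cells in DMSO, against 8.53 CPM for RAD54L. LRRC41 differed between genotypes by 0.33 in neratinib and -0.14 in DMSO, and by -0.74 with neratinib in parental cells. KLC1 stood at 120.8 CPM in parental cells in DMSO, against 32.3 CPM for XRCC3. The levels of these genes are therefore uncertain, and the shared percentage does not bound the uncertainty where the other gene is the more abundant. By contrast, ATM, CHEK1, BRCA2, BARD1, PRKDC, FANCM and XRCC4 share less than 1% of their exon bases with other genes.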

How the data were processed

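The authors deposited raw, unnormalized whole-number counts of reads for each gene of 12 libraries in a single table. Libraries were made with the TruSeq RNA v2 kit and sequenced as single reads of 50 bases, per the labels' protocols. FastQC 0.11.7, STAR 2.7.9, edgeR 3.40.2 and the GRCh38 (hg38) genome are named per the submitters' processing notes, while the counting program, annotation and strand setting are not given in the sources used here. Of 28395 lines, 581 had no gene name, held 0.0878% to 0.1245% of the counts and were left out.

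Counts of the 12 libraries, filtered with filterByExpr and scaled with TMM, were fitted in 1 edgeR 4.0.16 quasi-likelihood model (R 4.3.3) with a mean per group and 8 residual degrees of freedom. Replicates were not identical, with chi-square per degree of freedom of 1.36 to 3.41, and were kept apart. The alternatives were DESeq2 1.42.0, other scalings and filters, a fixed coefficient of variation of 0.1, fits on the compared groups alone, a replicate block and leaving out each library. Deviations of same-numbered libraries of different groups had correlations of -0.02 to 0.04 over 18 pairs, and the numbers were not used to pair them.

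The genes and the lists were chosen with earlier results of these data known. A repair gene was given library by library where its level reached 1 CPM in either group, its adjusted p was below 0.05, its change was at least 1.5-fold and the groups did not overlap, up to the 10 largest changes per comparison. The 3 smallest changes per comparison were named as well, with up to 3 called genes from each other repair list and up to 2 from each cell-cycle list, of which 2 are not reported here. Exon lengths and overlaps came from GENCODE 29 and promoter windows from RefSeq.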

Additional observations from a re-analysis of the deposited data

Results flagged for a closer look

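For 23 of the 38 repair genes the neratinib response differed between the genotypes by the interaction test (edgeR quasi-likelihood, Benjamini-Hochberg adjusted p below 0.05 over all 16208 genes), against 46.1% of all genes tested. The values are the log2 response in KO-labelled cells less that in parental cells. A positive value can thus mean a smaller fall, a larger rise or a rise in place of a fall in KO-labelled cells. Of the positive values below, 16 belonged to genes called lower with neratinib in parental cells.

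Among genes of end resection, the interaction was 0.27 for RBBP8, 0.37 for EXO1 and -0.49 for MRE11. For checkpoint and end-choice genes it was 0.42 for CHEK1 and 0.16 for TP53BP1. The BRCA genes had 0.57 for BRCA2, 0.48 for BARD1 and 0.29 for PALB2. Among the later recombination genes it was 0.37 for XRCC2, 0.31 for BLM, 0.30 for RAD51D, 0.26 for RAD54L, 0.20 for XRCC3 and -0.31 for RAD51C. Fanconi genes had 0.21 for FANCA, -0.22 for FANCL, -0.39 for FANCM and -0.20 for BRIP1. End-joining genes had 0.54 for PRKDC, 0.26 for XRCC5 and -0.24 for LIG4. MSH6 and PARP1 had 0.38 and 0.12.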

How the results depend on the processing

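Of 3752 values, over 190 gene and comparison pairs and 20 settings, 3561 kept their direction and side of the threshold, 150 lost the call, 41 gained it and 0 reversed. Of the 150, 73 were with a fixed coefficient of variation of 0.1. That setting left 9 genes higher and 5 lower in KO-labelled cells in neratinib, 3 higher and 7 lower in DMSO, 6 higher with neratinib in KO-labelled cells, 7 higher with neratinib in parental cells, and an interaction higher for 2 and lower for 0, so most small differences rest on the small spread between these libraries. With a mean of at least 5 CPM, 1 gene rose and 3 fell by at least 1.5-fold with neratinib in KO-labelled cells (XRCC4 was then not tested), and 3 fell with library totals alone. In both settings ATR and FANCA were just under 1.5-fold. With DESeq2 the interaction was lower for 3 genes, and BRCA2 passed 1.5-fold, making 1 gene, with DESeq2 and with edgeR on DESeq2-style size factors.

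Leaving out each library in turn gave 3 to 7 genes with a lower interaction, with the 3 found without KO-labelled DMSO replicate 1, and 0 to 1 with an interaction higher by at least 1.5-fold. The other counts stayed within 1.5 times of those reported. Library totals alone moved the median of all genes by 0.0793 with neratinib in parental cells and by less in the other comparisons.

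With the replicate number as a block, 189 of 190 member values kept their side of the threshold, and 11553, 11512, 13031, 12478 and 7349 genes of all 16208 were called for the genotype difference in DMSO, the genotype difference in neratinib, the neratinib response of parental cells, that of KO-labelled cells, and the interaction. Of 18 same-numbered pairs, 0 correlated above 0.1, and 6 of 12 libraries correlated best with their own number. These correlations take in the counting noise of all genes tested, so they cannot exclude a weak effect shared by a number.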
